A study of Mus musculus with 2 samples.

Results

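The odorant receptor (Olfr) genes of mouse chromosome 2 lie in a large central cluster with a smaller cluster far out on either side of it. The outer clusters are described here, the proximal cluster, nearer the centromere, and the distal cluster. In mm9 their members run from 36232298 to 37188252 and from 111071010 to 111997164. Members were all deposited Olfr entries on chromosome 2 whose locus starts within a fixed window of mm9 around either stretch. This rule uses position only, but the clusters were chosen with earlier results of these data known. The proximal cluster has 28 members and the distal cluster 37, which makes 65 of the 1112 Olfr entries in the table. RNA came from the olfactory epithelium of adult C57BL/6 mice, in 2 samples that carry the genotype wild type and are titled Wildtype Adult OE 1 and 2. The description of sample 1 reads wt and that of sample 2 reads 3bko, a term the sources used here do not explain. Each entry has 1 level in FPKM, a fragment count scaled to the length of the gene model and to the total of mapped fragments. Every row of the table names wt and 3bko as its 2 samples, and the level is tied to neither of them. Every level below is therefore the authors' single value, with no replicates, no SD and no test, and the sequencing depth is unknown. The table holds Olfr genes only, so the tissue could not be checked against other markers.

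Odorant receptors are G protein-coupled receptors in the cilia of olfactory sensory neurons, where they bind odorants and signal through a shared G protein and cyclic AMP pathway. A mature neuron typically transcribes 1 receptor gene from 1 allele, so each receptor marks its own small population of neurons. In whole epithelium, more neurons that use a receptor and more RNA per neuron cannot be told apart. Neighbouring receptor genes have often arisen by local duplication, which gives clusters made of related genes. The MOR families used here group receptors by sequence. The coding sequence usually fills part of a single exon, with the 5' untranslated region (UTR) on exons upstream.

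The clusters hold different families. Because families group receptors by sequence, the coding identities given below describe this difference and are not separate support for it. The proximal cluster has 14 members of MOR136, 4 of MOR138, 3 each of MOR127 and MOR159, and 1 each of MOR128, MOR134, MOR158 and MOR178. The distal cluster is made of only MOR245 (21 members) and MOR248 (16 members). All of these are class II families, the class that holds most mammalian receptors. Apart from MOR127 and MOR128, each with 2 further entries on other chromosomes, no family of either cluster has an entry elsewhere in the table, except that Olfr1034 and Olfr1036 of the central cluster carry MOR245 beside another family name. The next lines give, for the highest member of each of the 6 families with 3 or more members in a cluster, the 45 bases that code for the stretch at the end of the third transmembrane segment by which odorant receptors are usually recognised. They are shown because they hold what these members share, and capitals mark the 25 bases that all 6 have in common.
Olfr342 (MOR136): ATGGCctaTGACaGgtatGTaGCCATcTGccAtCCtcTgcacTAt
Olfr365 (MOR138): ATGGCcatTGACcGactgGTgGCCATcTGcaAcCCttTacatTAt
Olfr353 (MOR127): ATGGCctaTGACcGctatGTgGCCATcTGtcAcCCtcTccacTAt
Olfr360 (MOR159): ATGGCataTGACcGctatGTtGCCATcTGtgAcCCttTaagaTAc
Olfr1308 (MOR245): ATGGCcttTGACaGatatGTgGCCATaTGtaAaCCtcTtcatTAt
Olfr1301 (MOR248): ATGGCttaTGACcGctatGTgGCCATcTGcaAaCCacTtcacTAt
The sequences run 5' to 3' on the coding strand, from GENCODE M21 (GRCm38), at coding bases 352 to 396 counted from the A of the start codon (358 to 402 in Olfr365 and 346 to 390 in Olfr353). Over the whole coding sequence the clusters are farther apart. Between them, 999 pairs of genes had a median identity of 52.3%, and the highest was 56.0%. Within the proximal cluster the median was 59.7% over 351 pairs, and 82.1% among the 91 pairs of MOR136. Within the distal cluster it was 61.9% over 666 pairs, with 67.8% inside MOR245, 69.3% inside MOR248 and 59.3% between these 2 families.

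The distal cluster had the higher median level. Its median FPKM was 2.15 (interquartile range 1.07 to 3.71, lowest 0.0432, highest 26.3), and that of the proximal cluster was 0.559 (0.151 to 1.30, lowest 0.0254, highest 10.8). The ratio of the medians was 3.84. Over all 1112 entries the median was 1.09, and the central cluster of 225 entries had 1.11, so the outer clusters lay on either side of both. The ranges overlapped, and in 73.6% of all pairs of 1 gene from each cluster the distal gene was the higher. Of the 28 members of the proximal cluster, 23 lay below the median of the distal cluster. Only Olfr1301 and Olfr1294 of the distal cluster lay above the highest member of the proximal cluster.

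**Figure D1:**
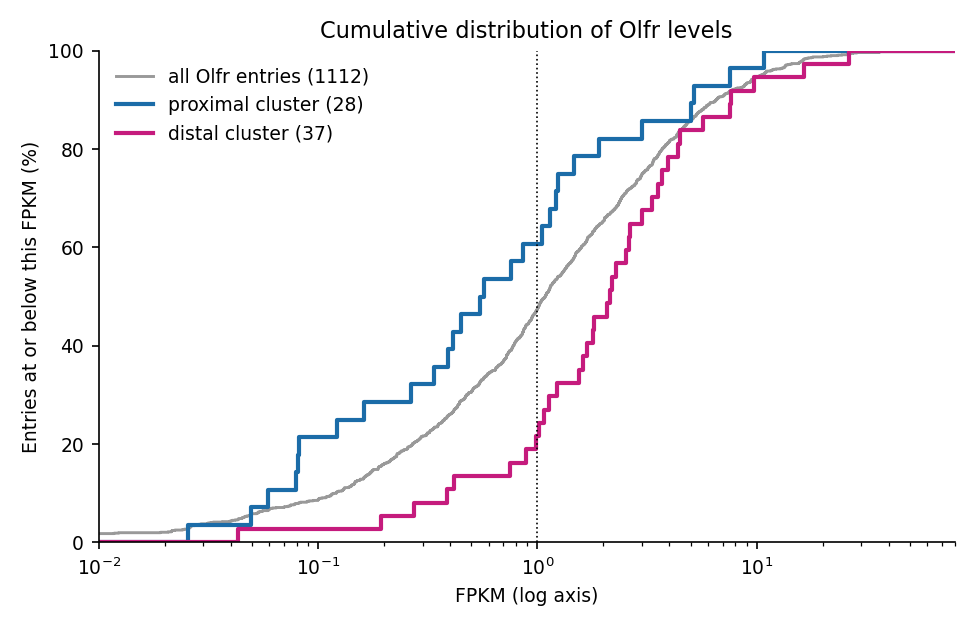
Cumulative distribution of FPKM (log axis) for the proximal cluster, the distal cluster and all 1112 Olfr entries; the dotted line marks an FPKM of 1. The proximal curve lies to the left of that of all entries over most of its length, the distal curve lies to its right up to an FPKM of about 5, and above this the 3 curves come close.

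The gap between the clusters was wide in the low and middle range, and among the high values it varied with the threshold. An FPKM of 1 or more was listed for 29 members of the distal cluster (78.4%) and 11 members of the proximal cluster (39.3%), against 52.5% of all entries. At 5 or more the shares were 16.2% (6 members) and 14.3% (4 members), against 14.3% of all entries. The 100 highest entries of the table included 5 members of the distal cluster (13.5%) and 2 of the proximal cluster (7.14%), against 8.99% of all entries. Below an FPKM of 0.2 lay 8 members of the proximal cluster (28.6%) and 2 of the distal cluster (5.41%), against 16.0% of all entries. The mark NOTEST, which Cuffdiff gives where too few fragments align for its test, stood on 8 members of the proximal (28.6%) and 3 of the distal cluster (8.11%), against 18.3% of all entries. No member of either cluster was listed at 0. As a share of the Olfr sum of FPKM, the proximal cluster had 1.51% (with 2.52% of the entries) and the distal cluster 4.50% (with 3.33% of the entries). On the log2(FPKM + 0.1) scale the medians were -0.60 and 1.17, a difference of 1.77. That difference was 1.01 with a pseudocount of 1, 1.11 among members at FPKM 0.1 or more and 0.97 among members with the status OK, where the proximal median was 1.10 and the distal median 2.24.

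In the proximal cluster, a few genes stood far above the rest. The 3 highest members held 52.4% of the cluster's summed FPKM. Olfr360, a MOR159 receptor (chromosome 2, 36923827 to 36924780, mm9), had an FPKM of 10.8, rank 54 of all entries. Olfr365, of MOR138 (37056763 to 37057701), had 7.52 at rank 93. Its stretches of 50 coding bases (50-mers) were used as a rough guide to how much sequence it shares with other Olfr transcripts. Olfr365 shares 38.3% of them with the pseudogene Olfr364-ps1, and 61.7% are found in no other Olfr transcript, so its value is uncertain. Next came 3 MOR136 receptors, Olfr342 (36382934 to 36383872) at 5.17, Olfr339 (36276920 to 36277849) at 5.03 and Olfr346 (36543524 to 36544453) at 3.00, with ranks 151, 158 and 280. After these the values dropped to between 1.91 and 1.15 for the other five of the 10 highest. These were Olfr361 of MOR159 (36940298 to 36941266) at 1.91, Olfr362 of MOR158 (36960215 to 36961168) at 1.47, Olfr3 of MOR136 (36667669 to 36668610) at 1.24, Olfr353 of MOR127 (36745431 to 36746366) at 1.22 and Olfr368 of MOR178 (37187269 to 37188252) at 1.15. Apart from Olfr365, these 10 had between 89.9% and 100% unique coding 50-mers.

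MOR136, whose genes make up the end of the proximal cluster nearer the centromere, ran from high to very low levels. Its median FPKM was 0.277 over 14 members, with 5 members at 1 or more and 7 below 0.2. Over all entries the median was 1.09, with 52.5% at 1 or more and 16.0% below 0.2. Besides the 4 named above, Olfr350 had 1.05, Olfr347 had 0.449 and Olfr348 had 0.392. The 7 members below 0.2 were Olfr344 at 0.161, Olfr341 at 0.122, Olfr352 at 0.0822, Olfr50 at 0.0811, Olfr345 at 0.0791, Olfr338 at 0.0594 and Olfr340 at 0.0495. The only other member of the cluster below 0.2 was Olfr356, the single MOR134 receptor (36792641 to 36793588), whose 0.0254 was the lowest value of both clusters, at rank 1082. All 8 have the status NOTEST. Unique coding 50-mers made up similar shares of the low and the high genes. They were 83.7% in Olfr340, 89.2% in Olfr345, 89.3% in Olfr338 and 97.0% in Olfr50, beside 89.9% in Olfr339 and 96.3% in Olfr342.

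The other families of the proximal cluster had no member below 0.2 except Olfr356. Without MOR136 the median of the remaining 14 members was 0.813. MOR138 ran from Olfr355 at 0.265 through Olfr357 at 0.762 and Olfr366 at 0.865 to Olfr365. MOR159 had Olfr358 at 0.571 below Olfr361 and Olfr360, and all 3 loci cover the coding sequence only. MOR127 had Olfr351 at 0.339, Olfr354 at 0.547 and Olfr353 at 1.22. Olfr367-ps of MOR128 (37122471 to 37126907), typed as a transcribed pseudogene in GENCODE and as protein coding in RefSeq, had 0.413.

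Most of the signal of the distal cluster came from its MOR248 receptors. Their 16 members held 68.4% of the cluster's summed FPKM, with a median of 2.47, and the 21 members of MOR245 held 31.6%, with a median of 1.68. An FPKM of 1 or more was listed for 13 of 16 and 16 of 21, against 52.5% of all entries. All 6 members at 5 or more were MOR248 genes, and 14.3% of all entries reached that level. Olfr1301 (chromosome 2, 111594408 to 111595346, mm9) had the highest value of both clusters, 26.3, at rank 8 of all entries, and Olfr1294 (111377506 to 111378444) had 16.4 at rank 20. Olfr1295 (111404661 to 111405599) followed at 9.70, Olfr1290 (111329375 to 111330313) at 7.63, Olfr1297 (111461291 to 111462229) at 7.53 and Olfr1299 (111501610 to 111505323) at 5.70, with ranks 63, 91, 92 and 133. Unique coding 50-mers were 100% for Olfr1301 and 91.2% to 99.7% for the others, except Olfr1290 with 67.9%, which shares 31.5% with the pseudogene Olfr1292-ps1.

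MOR245 had no member at an FPKM of 5 or more. Its highest members were Olfr1308 (111800266 to 111801228) at 4.48, Olfr1305 (111713072 to 111714010) at 3.96, Olfr1307 (111784673 to 111785611) at 3.71, Olfr1311 at 3.55, Olfr1316 at 3.35 and Olfr1312 at 2.99. Below them were Olfr1288 at 2.63, Olfr1278 at 2.53, Olfr1318 at 2.19, Olfr1275 at 2.09, Olfr1303 at 1.68 and Olfr1289 at 1.55. Another group lay near 1, with Olfr1309 at 1.23, Olfr1276 at 1.13, Olfr1306 at 1.07, Olfr1317 at 1.02, Olfr1310 at 0.985, Olfr1284 at 0.887 and Olfr1313 at 0.747. Olfr1314 (111931918 to 111932856) had 0.274, with 100% unique 50-mers. Olfr1279 (111146358 to 111147299) had 0.0432 at rank 1061 and was the only member of the cluster below 0.1. Its locus is 942 bases long and its annotated coding sequence 936. Among members, Olfr1316 had the smallest share of unique sequence, since 79.3% of its coding 50-mers also occur in the pseudogene Olfr1315-ps1 and 20.7% are unique. Olfr1303 shares 59.1% with Olfr268-ps1.

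The remaining MOR248 members were lower. Olfr1281 (111168578 to 111169495) had 4.37, Olfr1277 had 2.64, Olfr1280 had 2.29, Olfr1298 had 2.15, Olfr1283 had 1.81, Olfr1286 had 1.79 and Olfr1302 had 1.62. Unique coding 50-mers were 60.2% in Olfr1281 and 59.8% in Olfr1280, so the values of both are uncertain. At the bottom were Olfr1282 (111175316 to 111176233) at 0.416, Olfr1300-ps1 (111507594 to 111533476), a pseudogene entry with a locus of 25883 bases, at 0.387, and Olfr1287 (111289299 to 111290216) at 0.194.

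**Figure D2:**
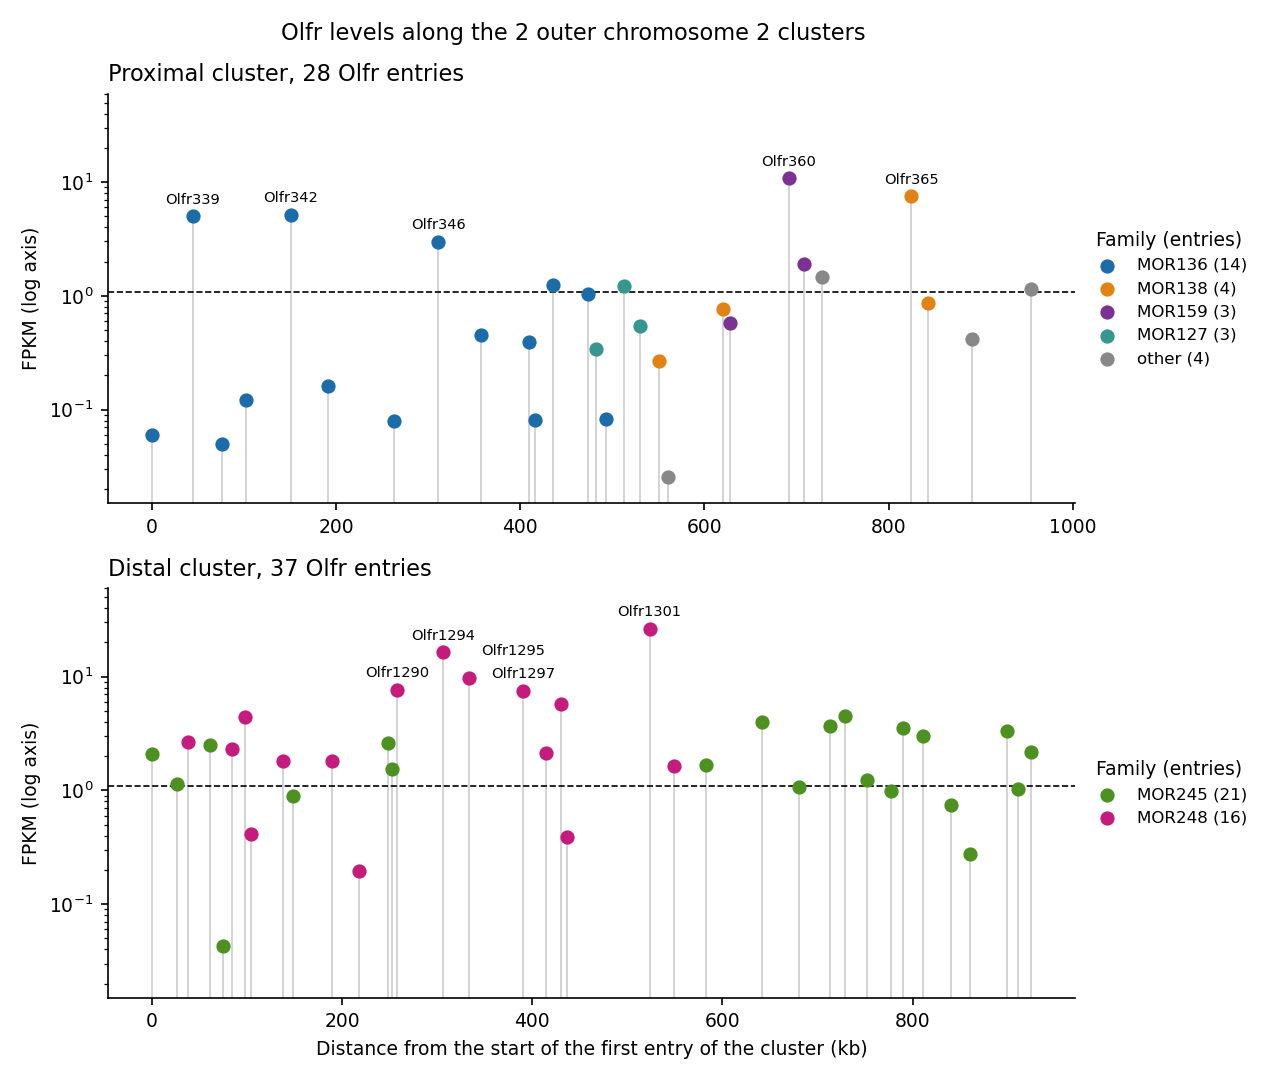
FPKM (log axis) of each entry against its distance in kb from the first entry of its cluster, coloured by MOR family; the dashed line is the median of all 1112 Olfr entries, 1.09. High and low MOR136 genes are mixed at the left of the proximal cluster. The tallest values of the distal cluster are MOR248 genes of the stretch from Olfr1290 to Olfr1301.

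Both clusters span nearly the same length, 956 kb and 926 kb, with a median gap between neighbouring deposited entries of 30.3 kb and 22.5 kb. Along the proximal cluster the 11 entries from Olfr338 to Olfr50 had a median FPKM of 0.161, the 10 from Olfr3 to Olfr358 had 0.559 and the 7 from Olfr360 to Olfr368 had 1.47. Along the distal cluster the 8 entries from Olfr1290 to Olfr1301, all of MOR248, had a median of 7.58 and held 57.0% of the cluster's sum within 266 kb. The 14 entries before them had a median of 1.80 and the 15 after them 1.68. The 8 MOR248 genes outside that stretch had a median of 1.80, next to 1.68 over all of MOR245. These stretches were chosen after their values were seen. Without Olfr1290 to Olfr1301, the median of the distal cluster was 1.79, still above the 0.559 of the proximal cluster. Olfr338 at 0.0594 and Olfr368 at 1.15 bound the proximal cluster, and the next entry on the chromosome, Olfr987 at 2.03, begins the central cluster 48.0 Mb away. Olfr1275 at 2.09 and Olfr1318 at 2.19 bound the distal cluster, and Olfr1274-ps at 2.96 ends the central cluster 20.7 Mb before it.

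Adjacent entries often had very unlike levels, and so did entries of the same cluster that are not adjacent. Adjacent means next to each other among the deposited entries, so any gene without an entry is passed over. FPKM differed by more than 5 times in 14 of the 27 adjacent pairs of the proximal cluster (51.9%) and in 9 of 36 pairs of the distal cluster (25%). That share was not computed over all pairs. Among pairs with less than 90% coding identity, adjacent or not, the median ratio was 5.53 over 347 proximal pairs and 2.81 over 652 distal pairs. The largest contrasts of the proximal cluster were all inside MOR136. Olfr339 at 5.03 stands between Olfr340 at 0.0495 and Olfr338 at 0.0594, ratios of 101 and 84.6, and Olfr342 exceeds its neighbour Olfr341 42.4 times. In the distal cluster the largest were Olfr1301 over Olfr1300-ps1 (68.1 times), Olfr1278 over Olfr1279 (58.6 times) and Olfr1280 over Olfr1279 (53.1 times). Such ratios rest on low denominators, whose error is unknown. The 0.387 of Olfr1300-ps1 is not as low as the others, and it belongs to a pseudogene entry with a locus of 25883 bases. On the log2(FPKM + 0.1) scale, the median absolute difference was 1.54 between adjacent and 1.85 between other pairs in the proximal cluster, and 1.50 and 1.41 in the distal cluster.

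Some close relatives in sequence differed in level and others did not. Coding identity reached 90% in 4 pairs of the proximal cluster, with FPKM ratios below 2 in 2 of them and of 18.6 and 31.1 in the other two, and both large ratios rest on Olfr344. It reached 90% in 14 pairs of the distal cluster, with a median ratio of 3.91 (1.01 to 14.7) and a ratio above 2 in 12. Most of these 14 pairs lie among the MOR248 genes Olfr1280, Olfr1281, Olfr1282, Olfr1283, Olfr1286 and Olfr1287. Most of the ratios above 2 rest on Olfr1282 at 0.416 or Olfr1287 at 0.194. Among the pairs with a lower identity, the median ratio was 5.53 over 347 pairs of the proximal and 2.81 over 652 pairs of the distal cluster. Both medians are above 2, so a ratio above 2 is common among these pairs too, and its share was not computed. Over all pairs within a cluster, Spearman's rho between identity and the absolute log2 difference was -0.03 in the proximal and -0.08 in the distal cluster. Pairs share members, so the 4 pairs hold 5 genes and the 14 pairs hold 14, and pairs are not independent. Within MOR136 the group of Olfr339, Olfr344 and Olfr346 shows a wide difference at a high share of unique sequence (89.9%, 94.6% and 93.8%). Olfr339 and Olfr346, 92.6% identical, had 5.03 and 3.00. Olfr344, 90.9% identical to the first and 91.1% to the second, had 0.161, lower by 31.1 and 18.6 times. The 90 coding bases where these 3 differ most, bases 388 to 477, are given here with capitals at the 19 positions that are not the same in all. They are shown because differences between these genes are densest there.
Olfr339 (FPKM 5.03): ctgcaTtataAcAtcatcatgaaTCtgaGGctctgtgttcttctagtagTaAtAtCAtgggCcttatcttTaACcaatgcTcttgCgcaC
Olfr344 (FPKM 0.161): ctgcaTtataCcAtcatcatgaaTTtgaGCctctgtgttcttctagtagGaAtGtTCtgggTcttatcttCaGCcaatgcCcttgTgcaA
Olfr346 (FPKM 3.00): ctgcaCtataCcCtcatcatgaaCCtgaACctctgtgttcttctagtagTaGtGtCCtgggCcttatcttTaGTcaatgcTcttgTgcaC
The fourth pair, Olfr340 and Olfr345 at 90.4%, was low in both genes.

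The closest pairs of the distal cluster are nearer copies. Olfr1282 and Olfr1286 were 97.5% identical, with FPKM of 0.416 and 1.79. Olfr1306 and Olfr1307, 96.9% identical neighbours, had 1.07 and 3.71. Olfr1283 and Olfr1287, at 96.7%, had 1.81 and 0.194, a ratio of 9.35, and Olfr1317 and Olfr1318, at 96.1%, had 1.02 and 2.19. In these 8 genes only 46.2% to 68.7% of the coding 50-mers were unique among Olfr transcripts. The sources used here do not say how reads with several matches were treated, so the split of each pair's signal is uncertain. The stretches of 90 bases with the most differences are shown for 2 of these pairs, with differing bases in capitals, since fewer positions separate them than the MOR136 genes above. The first pair is given at coding bases 409 to 498 (9 differences).
Olfr1283 (FPKM 1.81): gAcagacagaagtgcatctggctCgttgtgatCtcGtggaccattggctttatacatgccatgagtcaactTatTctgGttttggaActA
Olfr1287 (FPKM 0.194): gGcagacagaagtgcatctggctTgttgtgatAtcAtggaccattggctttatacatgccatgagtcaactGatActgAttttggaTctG
The other pair is given at coding bases 571 to 660 (7 differences).
Olfr1306 (FPKM 1.07): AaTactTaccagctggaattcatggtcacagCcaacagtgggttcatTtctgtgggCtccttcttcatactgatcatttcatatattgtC
Olfr1307 (FPKM 3.71): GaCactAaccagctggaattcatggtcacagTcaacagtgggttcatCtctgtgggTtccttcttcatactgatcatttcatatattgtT
In 2 of the 14 pairs both genes had at least 80% unique 50-mers. Olfr1297 and Olfr1298, 91.9% identical, had 7.53 and 2.15, and Olfr1299 and the pseudogene entry Olfr1300-ps1, 91.8% identical, had 5.70 and 0.387.

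**Figure D3:**
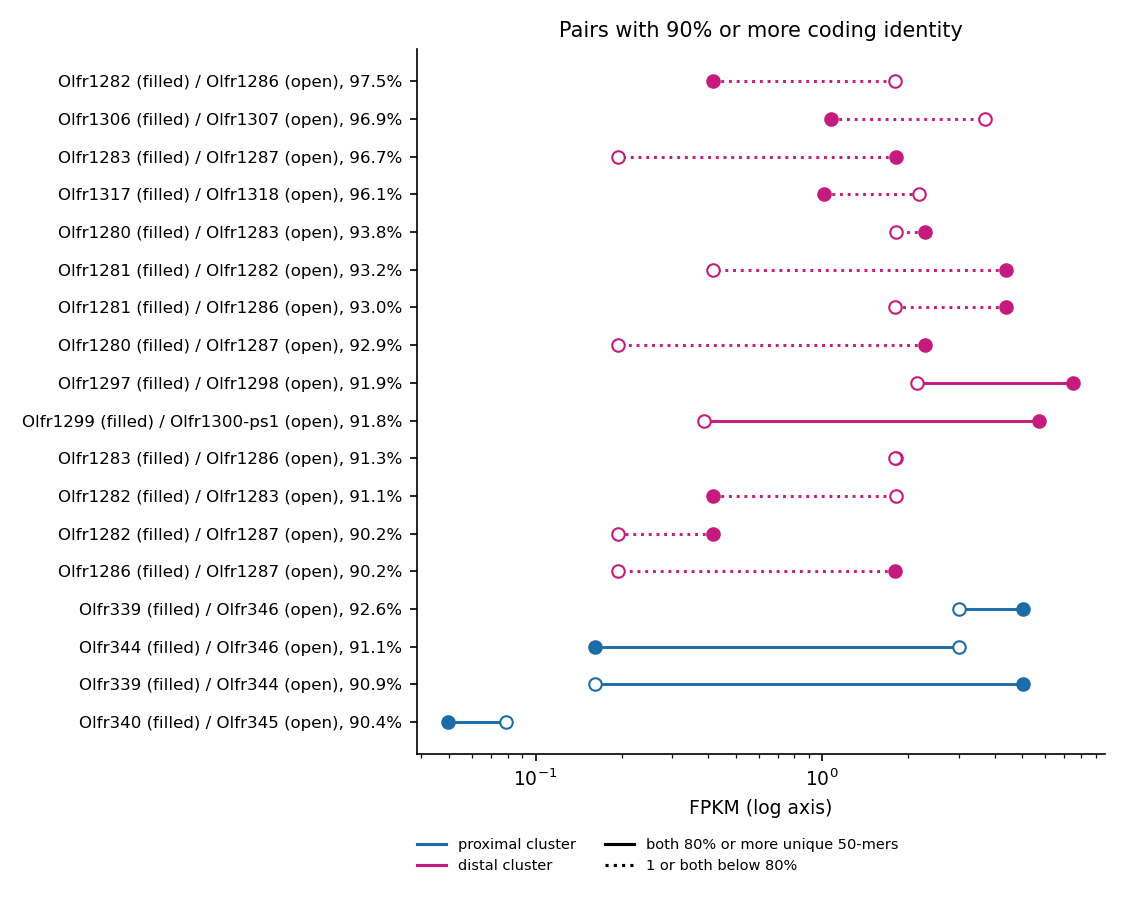
FPKM (log axis) of both genes in each of the 18 pairs with a coding identity of 90% or more, with the identity beside the names; solid lines join pairs in which both genes have 80% or more unique coding 50-mers, dotted lines the rest. Of the 14 distal pairs 12 have a ratio above 2, most of them with Olfr1282 or Olfr1287, against 2 of the 4 proximal pairs. The share above 2 was not computed for less identical pairs, whose median ratio was 2.81 in the distal and 5.53 in the proximal cluster. The lines of the MOR136 genes Olfr339 and Olfr346 with Olfr344 are the longest.

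Members with much shared coding sequence were scarce in the proximal cluster, and their share in the distal cluster was near that of the whole table. Smaller amounts of sharing were common in both. The median share of unique coding 50-mers was 94.5% in the proximal and 95.2% in the distal cluster, against 92.1% over all entries. All coding 50-mers were unique in 7 of 27 proximal members, 9 of 37 distal members and 339 of 1098 entries. Less than 80% unique coding 50-mers were found in 1 of 27 members with a coding sequence in the proximal cluster (3.70%) and in 14 of 37 members of the distal cluster (37.8%), against 33.7% of 1098 entries of the table and 33.2% of 223 in the central cluster. Among members at 80% or more, the medians were 0.559 (26 members) and 2.53 (23 members), so the order of the clusters was the same. The deposited locus equalled the coding sequence in length, or differed by exactly 3 bases, for 27 of 28 members of the proximal cluster (96.4%). The same held for 29 of 37 members of the distal cluster (78.4%). Both shares were above the 69.0% of all entries and the 67.1% of the central cluster. With these members alone the medians were 0.571 and 2.29.

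Median levels also differed by the number of annotated exons. The 4 single-exon members of the proximal cluster had a median FPKM of 0.0643, the 15 with 2 exons 0.547 and the 8 with 3 exons 1.10, and Olfr361 with 4 exons had 1.91. In the distal cluster the medians were 0.305 (2 members), 2.29 (21 members), 1.68 (9 members) and 2.53 (5 members with 4 or more). Over all entries of the table the medians for 1, 2, 3 and 4 or more exons were 0.0891, 1.05, 1.59 and 2.39, and in the central cluster 0.0534, 1.22, 2.11 and 2.33. The values of the proximal cluster thus follow the order of the whole table, on groups of 1 to 15 members. The medians of the distal cluster do not follow it beyond 2 exons, on groups of 2 to 21 members. Coding genes with no annotated UTR were Olfr340, Olfr345 and Olfr356 in the proximal cluster and Olfr1282 and Olfr1287 in the distal cluster. These 5 genes are among the 5 lowest of their own cluster. UTRs are annotated from transcript evidence, and the part of this in the relation with level was not tested. Between annotated 5' UTR length and FPKM, Spearman's rho across genes (with a length of 0 where none is annotated) was 0.546 over 27 members of the proximal cluster and 0.0921 over 37 members of the distal cluster, and it was 0.439 over 1098 entries of the table. For 3' UTR length the clusters stood the other way round, with 0.0507 in the proximal and 0.275 in the distal cluster, beside 0.246 over the same 1098 entries. These values describe genes of the same libraries, which are not independent replicates, and the difference between the clusters was not tested. Without single-exon genes the medians were 0.813 and 2.19, with a log2 difference of 1.33.

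**Figure D4:**
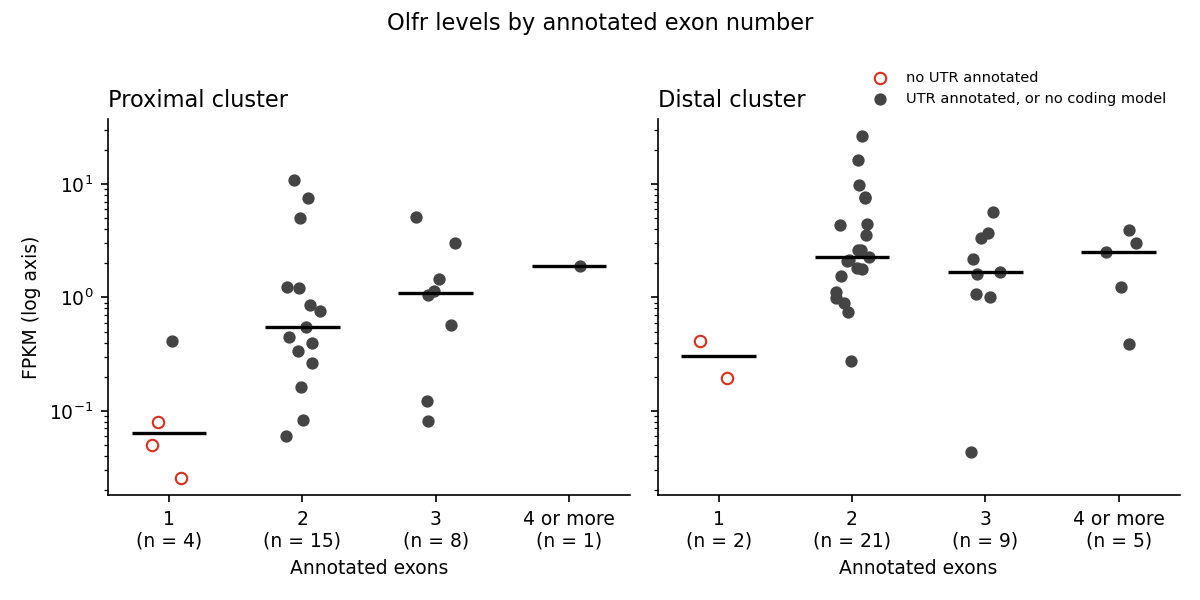
FPKM (log axis) of each member by the number of exons of its longest coding transcript in GENCODE M21 (its longest transcript where none is coding); bars are medians and open circles are coding genes with no annotated UTR. The single-exon members lie low in both clusters. Medians run from 0.0643 to 1.10 across 1 to 3 exons in the proximal cluster, where only 1 member has 4 exons (1.91). In the distal cluster the median with 3 exons (1.68) is below that with 2 (2.29).

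Orientation was taken from GENCODE M21. In the proximal cluster 20 members lie on the plus strand and 8 on the minus strand, with median FPKM of 0.498 and 0.894, and in the distal cluster 16 and 21, with 1.72 and 2.64. The 5 entries from Olfr1290 to Olfr1298 form a run on the minus strand that holds 4 of the 5 highest members of the distal cluster, and Olfr1301 lies in the next run of 4, on the plus strand. The 12 entries from Olfr1303 to Olfr1316, all MOR245 genes, are the longest run of 1 orientation in either cluster.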

How the data were processed

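The authors deposited FPKM values in 1 table of Olfr genes, with 1 FPKM column and 1 locus per entry, per the file headers. The submitters' processing notes name TopHat2, Bowtie2, Cuffdiff and the build mm9, without versions or roles. Sources used here do not state the gene annotation or the handling of reads with several matches. Both samples were placed in 1 group by their titles, and no comparison between them could be made. The table holds no markers of other cell types.

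The members, families, lists and stretches were chosen with earlier results of these data known. All members may be named. The 10 highest, the 5 lowest, close pairs and extreme neighbours are described in more detail. Locus starts count from 0 in the table and 1 was added. Families are MOR names among RefSeq synonyms, and all 65 members matched by symbol. Exons, UTRs and coding sequences come from the longest coding transcript in GENCODE M21 (GRCm38), which has all 65 members, 64 with a coding sequence. Identity is the share of equal columns in a global alignment (Biopython 1.88, match 1, mismatch -1, gap opening -5, extension -1), and coding DNA was used in place of the planned proteins. A 50-mer was unique if no other GENCODE Olfr transcript holds it. A locus counted as coding only when its length equalled the coding length or differed from it by exactly 3 bases. Medians and rank correlations used numpy 2.4.6 and pandas 2.3.3. Functions were tested on simulated data. Depth is unknown, so no interval or detection limit is given.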

Additional observations from a re-analysis of the deposited data

How the results depend on the processing

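The order of the clusters was the same in every setting run. The difference of medians (1.77 on the log2(FPKM + 0.1) scale) was 1.11 without entries below FPKM 0.1, 1.01 with a pseudocount of 1, 0.97 with status OK, 2.00 with 80% or more unique 50-mers, 1.30 without MOR136, 1.52 without Olfr1290 to Olfr1301 and 1.33 without single-exon genes, the last 3 settings being chosen after seeing the data. The proximal median (0.559) was 0.955 at FPKM 0.1 or more and 1.10 with status OK, since both filters drop more of its low members, and 0.813 both without MOR136 and without single-exon genes. The distal median (2.15) was 2.53 with 80% or more unique 50-mers and 1.79 without Olfr1290 to Olfr1301. The count at FPKM 1 or more in the distal cluster went from 29 to 17 with 80% or more unique 50-mers, where 23 members are left. At a threshold of 2, 5 members of the proximal cluster passed in place of 11. The other settings moved medians and the difference by 10% or less and counts by 1.5 times or less. The sample descriptions read wt and 3bko, but the titles and genotype give a single group and each gene has 1 value. No paired analysis was therefore possible, and values without either replicate could not be computed for the same reason. Unknown depth leaves the error of the low values unknown.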
